A study of Mus musculus with 4 samples.

Results

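The genes described here code for the nuclear-encoded subunits of oxidative phosphorylation, together with a few assembly factors and tissue-restricted forms that share their symbol starts. Members were all probe sets whose gene symbol in the platform annotation starts with Nduf, Sdh followed by a to d, Uqcr, Atp5, or Cox4 to Cox8. Of 45101 probe sets on the array, 195 met this rule. Of these, 185 carried 1 symbol and stood for 94 genes, and 10 carried several symbols and were named for no gene. Of the 185 probe sets, 171 passed a filter on dim signal, which left 92 of the 94 genes among 13070 genes tested. Cox7b2, a testis form, and Ndufb4, a complex I subunit, did not pass through any probe set of their own.

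The series compared dorsal skin of mice at postnatal day 16 on single-colour Affymetrix expression arrays. Wild type skin gave 2 arrays, and skin of bitransgenic animals that overexpress deltaNp63alpha gave 2 arrays. DeltaNp63alpha is the p63 isoform that predominates in basal keratinocytes. By their labels the arrays are biological replicates (n = 2 per group throughout). The sources used here state neither the promoter that drives the transgene nor strain, sex or litter.

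Oxidative phosphorylation takes place in the inner mitochondrial membrane. Complexes I and II feed electrons from NADH and succinate into ubiquinone, complex III passes them to cytochrome c, and complex IV hands them to oxygen. Complexes I, III and IV pump protons, and complex V, the ATP synthase, lets them flow back to make ATP. Most subunits are coded in the nucleus and are made in nearly every cell, but complex IV has subunits that come as a broadly expressed form and as a form found mainly in striated muscle. Cox6a2, Cox7a1 and Cox8b are those muscle forms in the mouse, and Cox7a1 and Cox8b are also known from brown fat. Skin at this site contains the thin muscle layer beneath the dermis.

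The median array signal lay between 97.9 and 113.1 intensity units. Of 4 probe sets for Trp63, the gene of the transgene, 2 had clearly higher bitransgenic signals, the brighter at 206 and 838 in wild type against 10325 and 15247 (limma adjusted p = 0.0613 over all probe sets). The other 2 overlapped between genotypes, at 4968 and 5812 against 5176 and 5302, and at 1891 and 507 against 1572 and 379. Krt5 and Krt14, the keratins of basal keratinocytes, read 19571 or more in all 4 arrays. Eif2s3y, a Y-linked gene, was high in wild type replicate 1 and bitransgenic replicate 2 only, at 1922 and 1212, against 22.5 and 16 in the other arrays. Xist, which is expressed from the inactive X, read 60.5 and 42.6 in those arrays. It read 5182 in wild type replicate 2 and 6195 in bitransgenic replicate 1, so each genotype held both patterns.

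None of the 92 genes passed the threshold in either direction (limma, adjusted p under 0.05 over all genes), where 2.33% of all genes tested did, 0.75% higher and 1.58% lower. At an unadjusted p under 0.05, 2 members had higher means, Ndufb1 and Sdhd (a higher or lower mean is that of the log2 signals throughout), and 3 had lower means, the muscle forms Cox6a2, Cox7a1 and Cox8b. Among all genes the same shares were 6.91% and 9.76%. The 73 ordinary subunits of complexes I to V had log2 differences between -0.62 and 0.82. Of these, 55 had higher means in bitransgenic skin, as did 6601 of the 13070 genes tested. The 3 muscle forms of complex IV were 6.82-fold to 8.16-fold lower in bitransgenic skin, with wild type arrays far apart.

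**Figure D1:**
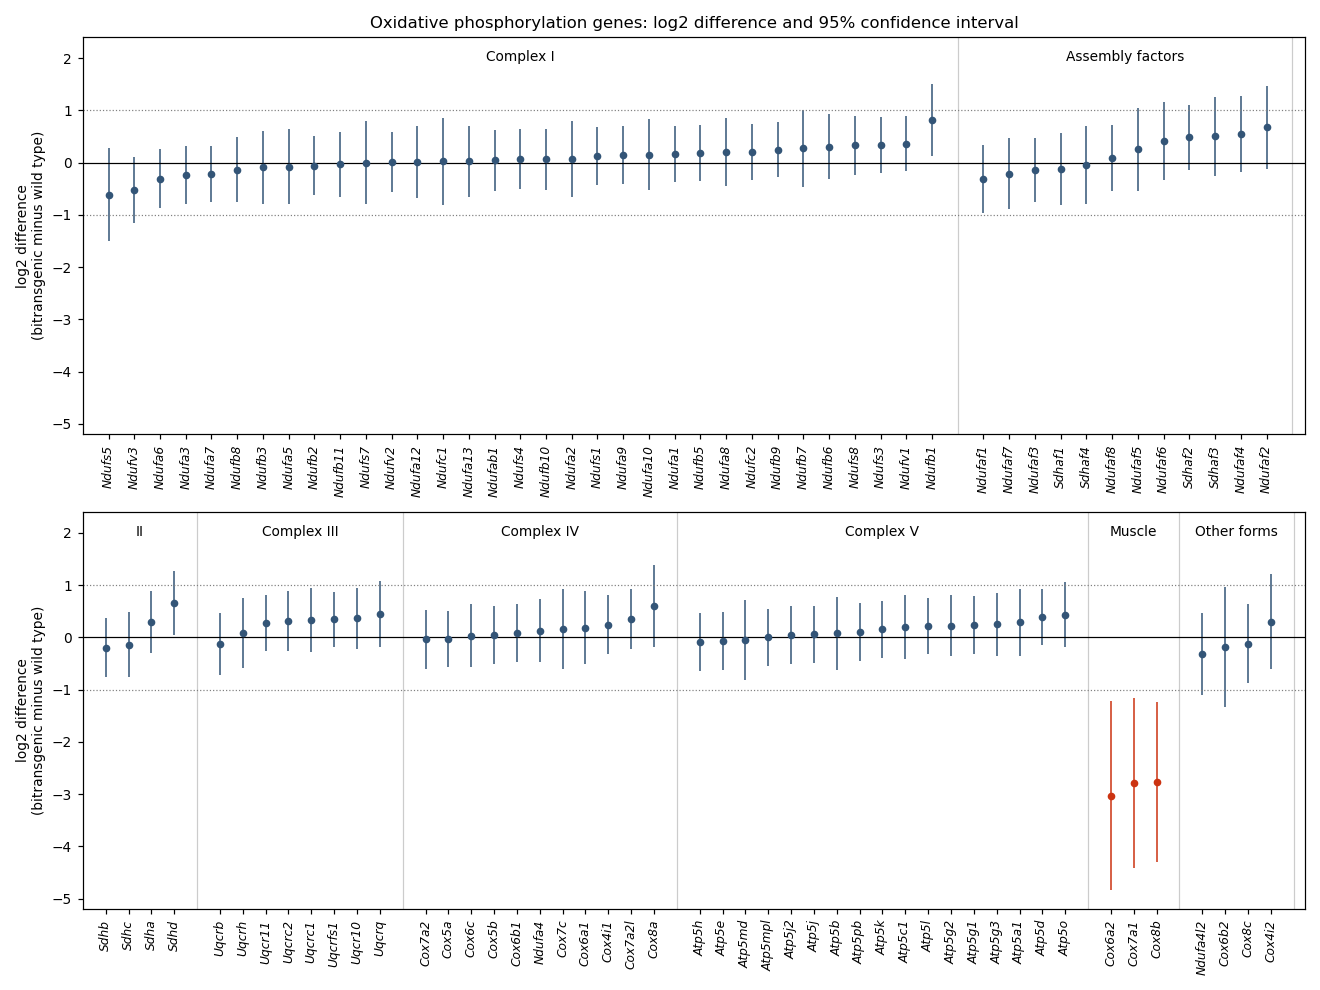
Log2 difference between bitransgenic and wild type skin for each of the 92 genes (points, bitransgenic minus wild type), with the 95% confidence interval of limma's fit (lines) and dotted lines at 2-fold, grouped by complex. Ordinary subunits lie between -0.62 and 0.82, and the 3 muscle forms, in red, lie between -3.03 and -2.77 with wide intervals.

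The 73 ordinary subunits were measured with narrow error. The median standard error of their log2 differences was 0.24, against 0.33 for all genes tested, and their median signal was 6974 against 620. The 95% interval lay wholly within 2-fold in either direction for 65 of the 73 subunits, or 89.0%, against 35.8% of all genes. The 8 whose interval reached past 2-fold were Atp5o, Cox8a, Ndufb1, Ndufb7, Ndufs5, Ndufv3, Sdhd and Uqcrq. The median log2 difference over the 73 was 0.12, against 0.0053 over all genes, and 55 had a higher mean and 18 a lower mean in bitransgenic skin. In 26 of the 73, both bitransgenic arrays lay above both wild type arrays, where 23.9% of all genes did so, and in 4 both lay below, where 24.9% of all genes did so. The number with a higher mean ran from 48 to 56 when an array was left out, and was 50 after quantile normalization and 64 with equal array medians.

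Complex I, NADH dehydrogenase, was read by 33 tested genes, and their median log2 difference was 0.061. The values of 23 were above 0 and of 10 below. The median was 0.20 when wild type replicate 1 was left out and -0.036 when bitransgenic replicate 1 was, so its sign rested on single arrays. All 6 tested genes of the catalytic core, which binds the flavin and the iron-sulfur clusters, had log2 differences above 0, from 0.00072 to 0.37. The lowest was that of Ndufs7, whose mean signal was slightly lower in bitransgenic skin, at 3551 against 3688. Ndufv1, which carries the flavin and the NADH site, read 5554 and 5036 in wild type against 6992 and 6644 in bitransgenic skin (0.37 ± 0.22, SE; limma adjusted p = 0.482). Ndufs3 and Ndufs8, core subunits of the peripheral arm, had log2 differences of 0.34 and 0.33. In Ndufv1, Ndufs3 and Ndufs8 the bitransgenic arrays lay above the wild type arrays. Over complex I, 24.2% of genes did so, against 23.9% of all genes tested.

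Among the supernumerary subunits of complex I, which surround the core, the largest value was that of Ndufb1, a small membrane arm subunit. Its signals were 341 and 366 in wild type against 581 and 692 in bitransgenic skin. The groups did not overlap, and the log2 difference was 0.82 ± 0.28 (95% interval 0.13 to 1.5; limma adjusted p = 0.219). At the other end, Ndufs5, on the intermembrane space side, read 5095 and 2511 in wild type against 2593 and 2089 in bitransgenic skin (-0.62 ± 0.37; adjusted p = 0.474). Wild type replicate 1 alone was high, and replicate 2 lay within the bitransgenic arrays. Ndufv3, Ndufa6, Ndufa3 and Ndufa7 were the 4 subunits whose bitransgenic arrays both lay below the wild type arrays. They made up 12.1% of the complex I genes, against 24.9% of all genes tested. Their log2 differences were -0.52, -0.31, -0.24 and -0.22. The other probe sets of Ndufa7 overlapped between groups, with values from -0.27 to 0.097, and a dim probe set of Ndufa3 gave 0.37. Ndufa1, the brightest complex I probe set, read 12203 and 11607 in wild type against 12973 and 13682 in bitransgenic skin, a log2 difference of 0.16 ± 0.22 (adjusted p = 0.784).

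Complex II, succinate dehydrogenase, which also works in the citric acid cycle, was read by its 4 subunits. Sdhd, a membrane anchor, read 2150 and 1757 in wild type against 2738 and 3467 in bitransgenic skin. Both bitransgenic arrays were higher, with a log2 difference of 0.66 ± 0.25 (95% interval 0.049 to 1.27; limma adjusted p = 0.263). Its second probe set past the filter, much dimmer at 308 to 421, gave 0.0081. The iron-sulfur subunit Sdhb read 6744 and 8186 against 6108 and 6857 (-0.20 ± 0.24), the flavoprotein Sdha had a value of 0.29 and the other anchor Sdhc of -0.14. The median of the 4 was 0.074, and it was 0.25 without bitransgenic replicate 1 and -0.099 without bitransgenic replicate 2.

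Complex III, the cytochrome bc1 complex, had the highest median of the 5 complexes. Of its 8 tested genes, 7 had a higher mean in bitransgenic skin, and in 6 both bitransgenic arrays lay above both wild type arrays (23.9% of all genes tested did so). The median log2 difference was 0.32, and it lay between 0.20 and 0.40 when any 1 array was left out. Uqcrq, a small subunit next to cytochrome b, read 4328 and 6316 in wild type against 6991 and 7299 in bitransgenic skin (0.45 ± 0.27; limma adjusted p = 0.47). The Rieske iron-sulfur protein Uqcrfs1 read 5597 and 5520 against 6864 and 7339 (0.35 ± 0.22; adjusted p = 0.494). Here the wild type arrays were close together and below both bitransgenic arrays. The core proteins Uqcrc1 and Uqcrc2 had values of 0.33 and 0.32. Uqcrb, which binds ubiquinone and had the brightest probe set, was the exception at 27383 and 31025 against 24226 and 29352 (-0.13 ± 0.25). Cyc1, the cytochrome c1 of the same complex, lies outside the symbol rule and read 8004 and 7151 against 10703 and 10351 (0.48; adjusted p = 0.361).

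Complex IV, cytochrome c oxidase, takes its catalytic core from mitochondrial DNA, and the 11 broadly expressed nuclear genes described here surround that core. Ndufa4, once assigned to complex I, is counted here. Their median log2 difference was 0.13, from 0.051 to 0.20 when an array was left out and 0.22 with equal array medians. Cox6b1, on the intermembrane space side, read 21607 and 21692 in wild type against 22669 and 23277 in bitransgenic skin, a log2 difference of 0.085 ± 0.23. Cox5a, Cox5b and Cox6c stayed between -0.027 and 0.038. Cox8a, the broad form of a small membrane subunit, had the largest value, 0.60 ± 0.32 (limma adjusted p = 0.429), with signals of 2852 and 5183 in wild type against 5681 and 6005 in bitransgenic skin. Only wild type replicate 1 was clearly low. Cox7c was read by probe sets that were dim in all arrays, the brighter at 227 to 302, so its value of 0.17 rests on low signal.

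The muscle forms of complex IV gave the largest differences of all 92 genes. Cox6a2 read 8055 in wild type replicate 1 and 1345 in replicate 2, against 373 and 408 in the bitransgenic arrays. Cox7a1 read 2363 and 499 in wild type against 144 and 146 in bitransgenic skin. For Cox8b the signals were 5011 and 1152 in wild type against 369 and 312 in bitransgenic skin. In all 3 genes wild type replicate 1 was highest, wild type replicate 2 was intermediate, and the bitransgenic arrays were low and close together, so the groups did not overlap.

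The log2 difference was -3.03 ± 0.75 (SE) for Cox6a2, -2.78 ± 0.68 for Cox7a1 and -2.77 ± 0.64 for Cox8b, or 8.16-fold, 6.88-fold and 6.82-fold lower in bitransgenic skin. The 95% intervals ran from -4.84 to -1.21, from -4.41 to -1.15 and from -4.31 to -1.23. In limma's fit the adjusted p was 0.11, 0.104 and 0.0925, so none passed. The standard deviation of the wild type signals (4745, 1318 and 2729) was about as large as their means (4700, 1431 and 3082). With 1 wild type array left out, the other has no replicate and is assumed to vary like the bitransgenic arrays, which were close together, so those p-values leave out the spread of wild type. Without wild type replicate 2 all 3 passed, with log2 differences of -4.31, -3.89 and -3.82 (adjusted p = 0.000652, 0.00127 and 0.00106). Without wild type replicate 1 the differences were -1.74, -1.68 and -1.72, and Cox6a2 (adjusted p = 0.0275) and Cox8b (0.0338) passed while Cox7a1 did not (0.0602). Without bitransgenic replicate 1 or 2 none passed. Bacterial control probe sets set the replicate numbers apart in both genotypes, with mean signals of 1528 and 1598 in the arrays numbered 1 against 328 and 465 in those numbered 2. With the replicate number as a block all 3 passed (limma adjusted p = 0.0425, 0.0404 and 0.0271), as did 4.93% of all genes. Between the arrays numbered 1 the log2 differences were -4.37, -3.90 and -3.71, and between those numbered 2 they were -1.68, -1.67 and -1.83. Within each number the genotypes also differed in Eif2s3y and Xist, so sex and genotype cannot be told apart there. The spread left in the block fit is the contrast between those sex-linked patterns. What the control signal marks is not given in the sources used here. A second Cox6a2 probe set, of suffix _x_at, read 2158 and 139 in wild type against 53.3 and 32.2 in bitransgenic skin, the same order of arrays.

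The broad paralogues of these 3 genes did not show that order. Cox6a1 read 17990 and 23328 in wild type against 19370 and 28093 in bitransgenic skin, a log2 difference of 0.19 ± 0.29 (limma adjusted p = 0.813) that was -0.081 without bitransgenic replicate 2. A second, dimmer Cox6a1 probe set read 5015 and 7727 in wild type against 7973 and 9182 in bitransgenic skin (0.46). There both bitransgenic arrays lay above both wild type arrays, as in 23.9% of all genes tested. Cox7a2 read 20093 and 23186 against 19955 and 22146 (-0.038 ± 0.24; adjusted p = 0.961), and the sign of this value turned under quantile normalization. Within each array, the log2 ratio of the muscle form to its broad form was lower in bitransgenic skin, with differences of -3.22 for Cox6a2 over Cox6a1, -2.74 for Cox7a1 over Cox7a2 and -3.37 for Cox8b over Cox8a. In each of the 3 pairs both bitransgenic arrays had a lower ratio than both wild type arrays. The exact permutation p, which counts both directions, was 0.33 for each pair, the smallest that 2 arrays against 2 can give.

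**Figure D2:**
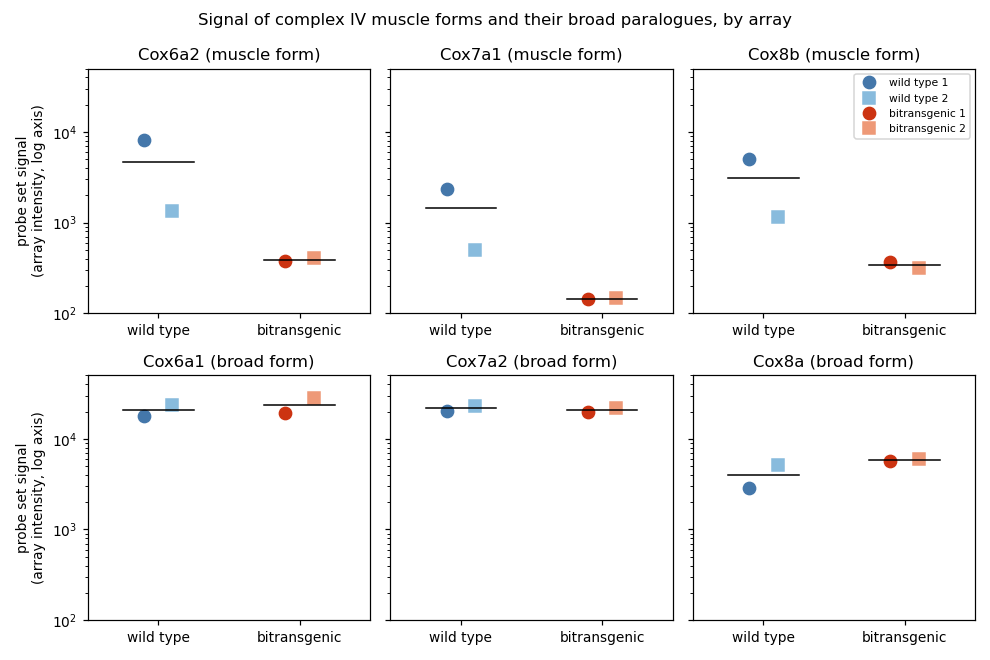
Probe set signal on a log axis for each array of the 3 muscle forms (top) and their broadly expressed paralogues (bottom), with the group means as lines. Muscle forms fall from 8055, 2363 and 5011 in wild type replicate 1 to bitransgenic signals of 408 or less. The probe sets shown for Cox6a1 and Cox7a2 overlap between genotypes. Heights of different probe sets are not comparable.

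Markers of skeletal muscle moved with the muscle forms. All 23 markers tested had lower means in bitransgenic skin, and 9 of them passed the threshold (1.58% of all genes were called lower). The number that passed rested on single arrays. It was 18 with the replicate number as a block, 14 without wild type replicate 1, 23 without wild type replicate 2, 1 without bitransgenic replicate 1 and 4 without bitransgenic replicate 2. Their summed signal was 346407 and 134704 in wild type against 31633 and 37567 in bitransgenic skin. Their median log2 difference was -2.79, within a range of -5.29 to -1.64 that held the 3 muscle forms. Ckm, the muscle creatine kinase, read 24154 and 7756 in wild type against 983 and 1617 in bitransgenic skin (-3.42; limma adjusted p = 0.0345). Myl1, a myosin light chain of fast fibres, read 28012 and 18796 against 2738 and 4291 (-2.74; adjusted p = 0.0152). No muscle marker was at 0 in any array. The ratio of wild type replicate 1 to replicate 2 had a median of 3.11 over the markers, from 1.49 to 7.15, and it was 5.99 for Cox6a2, 4.74 for Cox7a1 and 4.35 for Cox8b. The part of the muscle markers in the difference of the muscle forms was not tested. In whole skin, fewer muscle cells and less of these RNAs per muscle cell cannot be told apart.

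**Figure D3:**
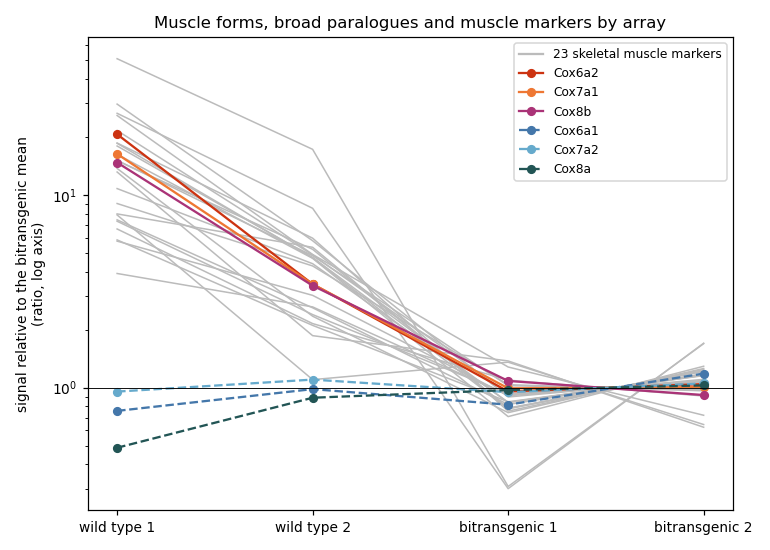
Signal of each gene divided by its mean over the bitransgenic arrays, on a log axis, for each of the 4 arrays; lines only join the values of 1 gene. The 3 muscle forms (red, orange and purple) run inside the band of the 23 skeletal muscle markers (grey), while the dashed broad forms stay near 1, with Cox8a lowest in wild type replicate 1.

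Other tissue markers were read beside these genes, since Cox7a1 and Cox8b are also known from brown fat. Ucp1, the uncoupling protein that defines brown fat, was too dim to be tested, at 5.4 and 4.9 in wild type against 19.5 and 87 in bitransgenic skin. The other 4 brown fat markers summed to 5351 and 5758 in wild type against 20408 and 5407 in bitransgenic skin, and none passed (limma; at an unadjusted p under 0.05, 1 was higher and 1, Ppargc1a, lower). Most of the sum in bitransgenic replicate 1 came from Cidea (8211) and Elovl3 (11897), whose groups overlapped, whereas Ppargc1a was 2.71-fold lower in bitransgenic skin. Cidea and Elovl3 were bright in arrays where Ucp1 was dim, and whether their signal comes from brown fat was not tested. Of 8 white fat markers, 7 had lower means and none passed, with summed signals of 69269 and 60442 in wild type against 34273 and 40382 in bitransgenic skin. The ratio of 3' to 5' signal of Gapdh, a measure of RNA integrity, was 1.55 in wild type replicate 1 and 1.02, 0.944 and 0.931 in the other arrays, while that of actin was 1.66 and 1.53 in wild type against 1.70 and 1.54 in bitransgenic skin, where wild type replicate 1 did not stand apart. The part of RNA integrity in the muscle form signals was not tested.

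Markers of some other parts of the skin also differed between genotypes, beside both the muscle forms and the ordinary subunits. Among all genes tested, limma called 0.75% higher and 1.58% lower. At an unadjusted p under 0.05 the shares were 6.91% higher and 9.76% lower. All 7 hair shaft markers passed with lower means (median -6.64), and their summed signal was 69357 and 117375 in wild type against 460 and 3144 in bitransgenic skin. All 6 fibroblast markers had both bitransgenic arrays below both wild type arrays (24.9% of all genes) with a median of -0.92, and none passed (limma; 4 at an unadjusted p under 0.05). Their summed signal was 130752 and 114607 against 59197 and 77343. The 7 tested markers of cell division had higher means (median 0.96) and none passed, 3 at an unadjusted p under 0.05, with sums of 10177 and 18337 against 22468 and 25776. Of 6 leukocyte markers 5 had higher means (median 0.85) and none passed, 3 at an unadjusted p under 0.05, with sums of 12440 and 7481 against 15742 and 22624. All 6 melanocyte markers had lower means and 1, Mitf, passed. Their sums were 5387 and 17924 against 2576 and 2685, with wild type replicate 2 the high array. Mitf itself was higher in wild type replicate 1, at 3464 and 2398 in wild type against 698 and 615 in bitransgenic skin. Other lists had no common direction. Of 6 basal keratinocyte markers 3 had higher and 3 lower means (median 0.085), with 0 at an unadjusted p under 0.05. Of 6 endothelium markers 2 had higher and 4 lower means (median -0.033), and none passed. Differentiated keratinocyte markers split into 3 higher and 3 lower, and 1, Flg, passed (2.13; limma adjusted p = 0.0156). The part of these shifts in the values of the subunits and of the muscle forms was not tested.

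Upstream sequence is shown for the muscle forms and broad forms of complex IV that had an entry in RefSeq's table (GRCm38.p6), since these are the members whose values differed most between a form and its paralogue. Each run is the 200 bases just before the annotated start, 5′ to 3′ in the direction of transcription. The windows are chr7:30183971-30184170 (plus strand), chr7:140900447-140900646 (minus strand), chr5:115348959-115349158 (minus strand), chr9:79759854-79760053 (minus strand) and chr19:7217617-7217816 (minus strand). Capitals mark matches on either strand to the NRF1 core GCATGCG, the GABPA or ETS motif CCGGAAG, the letters GGGCGG of the GC box, the letters CCAAT of the CCAAT box, or the E box CANNTG, and overlapping matches run together.
Cox7a1: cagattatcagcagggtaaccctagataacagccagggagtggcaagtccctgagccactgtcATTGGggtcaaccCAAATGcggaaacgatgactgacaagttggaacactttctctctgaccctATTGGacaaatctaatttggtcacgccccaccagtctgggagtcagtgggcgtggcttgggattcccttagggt
Cox8b: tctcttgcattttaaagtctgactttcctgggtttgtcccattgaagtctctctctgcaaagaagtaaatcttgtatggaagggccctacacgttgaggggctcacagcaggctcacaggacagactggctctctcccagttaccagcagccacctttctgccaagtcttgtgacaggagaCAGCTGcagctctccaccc
Cox6a1: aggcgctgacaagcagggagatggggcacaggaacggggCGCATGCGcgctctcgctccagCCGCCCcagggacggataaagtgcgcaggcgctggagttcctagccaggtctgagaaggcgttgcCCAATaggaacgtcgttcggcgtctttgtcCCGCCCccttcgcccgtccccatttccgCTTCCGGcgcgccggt
Cox7a2: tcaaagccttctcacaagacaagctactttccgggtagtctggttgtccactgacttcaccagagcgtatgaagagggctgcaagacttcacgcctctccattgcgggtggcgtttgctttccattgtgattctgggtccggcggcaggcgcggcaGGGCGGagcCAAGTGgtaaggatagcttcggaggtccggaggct
Cox8a: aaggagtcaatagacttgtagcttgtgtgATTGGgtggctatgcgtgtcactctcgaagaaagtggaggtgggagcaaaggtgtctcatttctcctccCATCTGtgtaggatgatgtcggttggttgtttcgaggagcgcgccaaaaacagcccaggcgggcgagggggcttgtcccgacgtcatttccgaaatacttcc
Cox6a1 held an NRF1 core, a GABPA or ETS motif, GC boxes and a CCAAT box in this window, Cox7a2 held a GC box and an E box, and Cox8a held a CCAAT box and an E box. In the muscle forms, Cox8b held 1 E box close to the start and Cox7a1 held 1 E box and 2 CCAAT boxes. An E box, the kind of motif that myogenic factors bind, stood in 66.2% of all promoters, read over 250 bases. In the 5 shorter windows shown, of 200 bases, it stood in both kinds of form. A match of letters is not evidence of binding.

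Over all members, promoters could be read for 76 of the 92 genes tested. In the 250 bases before the start, the GABPA or ETS motif stood in 17.9% of 67 promoters of ordinary subunits against 6.91% of 32851 promoters in all. For the NRF1 core, which belongs to a factor known to drive respiratory chain genes, the shares were 11.9% and 3.02%. The promoters of Atp5j, Atp5l and Cox6a1 held both motifs, and 50 of the 67 held neither. The motif of the estrogen-related receptors (AAGGTCA) stood in 5.97% against 4.08%, the GC box in 34.3% against 32.7%, the CCAAT box in 37.3% against 33.8%, and the E box in 61.2% against 66.2%. A TATA box (TATAAA) stood in 10.4% against 12.4%, and a YY1 motif (AAGATGG) in 1.49% against 4.49%. All were searched on both strands and could overlap each other, and these shares describe the promoters without a test.

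Complex V, the ATP synthase, was read by 17 genes, with a median log2 difference of 0.15 that ran from 0.058 to 0.28 when an array was left out. The value was positive for 14 and negative for 3 of them. Atp5o, the subunit at the top of the peripheral stalk that confers oligomycin sensitivity, read 8225 and 11058 in wild type against 11975 and 13931 in bitransgenic skin (0.44 ± 0.26; limma adjusted p = 0.468). Atp5d, the delta subunit of the central stalk, read 9868 and 10648 against 13812 and 12990 (0.39 ± 0.22; adjusted p = 0.462). In both genes the bitransgenic arrays were the higher ones. The 3 genes of the proton-carrying c ring, Atp5g1, Atp5g2 and Atp5g3, had values of 0.23, 0.23 and 0.25. Atp5g3, the brightest member of the complex, read 18025 and 18258 against 18881 and 24680, with bitransgenic replicate 2 apart from the other arrays. The catalytic beta subunit Atp5b had a value of 0.075, and Atp5h, of the peripheral stalk, had the lowest at -0.082 ± 0.23, with a sign that turned with equal array medians.

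**Figure D4:**
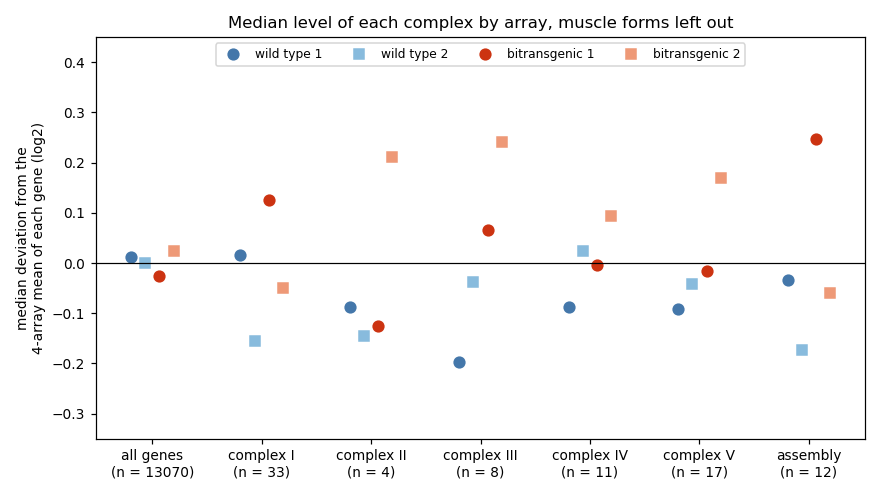
Median deviation of the genes of each complex from their own mean over 4 arrays, on the log2 scale, for each array, with muscle and other restricted forms left out. In complex III both bitransgenic arrays (0.066 and 0.24) lie above both wild type arrays (-0.20 and -0.038). The same holds in complex V (-0.016 and 0.17 against -0.091 and -0.042). In complexes I, II and IV the arrays of the groups interleave.

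By array, the complexes did not share 1 order. Complex I medians deviated by 0.016 and -0.16 in wild type and by 0.13 and -0.050 in bitransgenic skin, whereas those of complex V deviated by -0.091 and -0.042 against -0.016 and 0.17. Over the 73 subunits, the median absolute log2 difference was 0.20 between the wild type arrays, 0.22 between the bitransgenic arrays and 0.17 between genotype means. The last value compares means of 2 arrays, which vary less than single arrays, so it is not on the same footing as the others.

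Restricted forms other than those of muscle were dim, and the log2 differences of those tested were smaller than their standard errors. Ndufa4l2, a paralogue of Ndufa4 known to be induced by hypoxia, read 590 and 392 in wild type against 354 and 416 in bitransgenic skin (-0.31 ± 0.33; limma adjusted p = 0.699). Cox4i2, the lung form of subunit 4, read 62.3 and 52.0 against 83.0 and 65.6, next to the filter's signal of 57.0. Its groups did not overlap (23.9% of all genes had both bitransgenic arrays above), and its log2 difference was 0.30 ± 0.38. The testis forms Cox6b2 and Cox8c had values of -0.18 ± 0.48 and -0.12 ± 0.32, whose signs turned when some single arrays were left out. Cox7b2 stayed at 15 or less in every array.

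The 12 assembly factors that share the symbol starts, which help to build complexes I and II without staying in them, had a median of 0.18. Ndufaf2, a chaperone of late complex I assembly, had the largest value, with signals of 314 and 392 in wild type against 694 and 468 in bitransgenic skin (0.67 ± 0.33; limma adjusted p = 0.378). Ndufaf4 and Sdhaf3 followed at 0.54 and 0.51, and Ndufaf1 was lowest at -0.31. In 5 of the 12 both bitransgenic arrays were higher and in 3 both were lower, beside 23.9% and 24.9% of all genes tested. In Ndufaf2, Ndufaf4 and Sdhaf3 replicate 1 was the higher bitransgenic array.

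Where a gene had several probe sets, bright ones mostly gave values of 1 sign. Of 36 genes with more than 1 probe set at a mean signal of 1000 or more, 31 had all values of 1 sign. The median gap between their log2 differences was 0.12 and the largest was 0.47. These gaps were not small beside the median absolute log2 difference of the 73 ordinary subunits, 0.17. Dim probe sets differed more. Uqcr10, a small complex III subunit, gave 0.37 by its bright probe set and -0.90 by one that read 119 to 389, and Sdha gave 0.29 by its bright probe set and 0.94 by one that read 31.6 to 130. Another Sdha probe set, not dim at 1576 to 3037, gave -0.18. Over all 50 genes with several probe sets past the filter, 36 had 1 sign. A fit of all 27022 probe sets past the filter called 0 of 179 member probe sets, those with several symbols included, with 2 higher and 4 lower at an unadjusted p under 0.05 in limma. Of all probe sets in that fit, 0.762% were called, and 5.19% were higher and 7.01% lower at an unadjusted p under 0.05.

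Related genes of the mitochondrion were read from lists that hold none of these members. Of 5 electron carriers and complex III genes outside the rule, 0 passed (limma, 0 at an unadjusted p under 0.05), with a median of 0.27. Of 21 assembly factors of complexes III to V none passed, and 1 had a higher mean at an unadjusted p under 0.05. That gene was Atpif1, the inhibitor of ATP synthase, at 5349 and 5418 in wild type against 7971 and 8194 in bitransgenic skin (0.58; adjusted p = 0.249). The median of the list was 0.16. Of 12 citric acid cycle genes none passed, 1 had a higher mean at an unadjusted p under 0.05, and the median was 0.048, with Idh3g, a subunit of isocitrate dehydrogenase, at 0.57 (adjusted p = 0.286). Among 16 genes of the mitochondrial membranes and import, none passed and 14 had higher means, with a median of 0.31. At an unadjusted p under 0.05, 1 was higher (Tomm40) and 1 lower (Slc25a4). Tomm40, the import channel, read 368 and 858 against 1313 and 1372 (1.23; adjusted p = 0.204), and it passed without wild type replicate 2 (1.82; adjusted p = 0.0124), which compares the bitransgenic arrays with the lower wild type array alone and leaves out the spread of wild type. Slc25a4, the adenine nucleotide carrier of heart and muscle, read 16508 and 8205 in wild type against 5625 and 6075 in bitransgenic skin (-0.99; adjusted p = 0.232), with the same order of wild type arrays as the muscle forms.

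Of 14 regulators of mitochondrial genes none passed, 1 was higher (Ppargc1b) and 1 lower (Ppargc1a) at an unadjusted p under 0.05, and the median was 0.14. Ppargc1a, the coactivator PGC-1alpha, which is high in muscle and brown fat, read 200 and 266 in wild type against 63.1 and 88.8 in bitransgenic skin (-1.44; limma adjusted p = 0.117). It was higher in wild type replicate 2 than in replicate 1, unlike the muscle forms, and it passed when its probe sets were averaged (-1.93; adjusted p = 0.0491). Its relative Ppargc1b read 456 and 167 against 786 and 649 (1.31; adjusted p = 0.237). Tfam, which packages mitochondrial DNA, and Nrf1, chosen after their values were seen, as were Ppargc1b and Slc25a4, had values of 0.39 and 0.11.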

How the data were processed

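Messenger RNA of 4 skin samples was measured on 1 array each. The deposited values are probe set signals, an intensity on a linear scale, with no detection calls, and the authors' processing notes name MAS5 and affy without versions or roles. Trimmed by 2% at each end, every array of the deposited table averaged 500, so arrays had been scaled alike and total RNA per cell is not measured. The build behind the probe sets is not given in the sources used here.

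Gene names came from the platform annotation (34945 probe sets with 1 symbol, 932 with several). Of the former, 34741 matched RefSeq by Entrez identifier, which changed 0 symbols. Signals were turned into log2(signal + 16), which understates differences of dim genes. Probe sets with a mean below the 40th percentile (log2 6.19, a signal of 57.0) were left out, and the brightest probe set stood for a gene. The genotypes were contrasted by limma 3.58.1 under R 4.3.3 (lmFit, eBayes with trend; 2 residual and 4.45 prior degrees of freedom), with Benjamini-Hochberg adjustment over 13070 genes and a threshold of 0.05. The test was tried on simulated data. Errors are standard errors of that fit, and 95% intervals are its confidence intervals; the number of arrays limits the precision.

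Genes are named by a rule. It takes the muscle forms and their paralogues, members past the threshold, the largest rise, largest fall and brightest gene of each complex, the other restricted forms, and in each related list the gene with the smallest p. Further genes are named where a complex or a list is described, and were chosen with their values seen. The members and lists were chosen with earlier results of these data known. Alternatives were other pseudocounts, no filter, other scalings, other choices of probe set, a replicate block, no trend and leaving out each array.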

Additional observations from a re-analysis of the deposited data

How the results depend on the processing

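No member was called higher under any of the 13 alternatives. The number called lower was 0 under 10 of them and 3 with a replicate block. It ran from 0 to 3 when an array was left out. With replicate number as a block, Cox6a2, Cox7a1 and Cox8b kept their log2 differences (-3.03, -2.78 and -2.77) and passed (limma adjusted p = 0.0425, 0.0404 and 0.0271), while calls among all genes rose to 207 higher and 438 lower. The labels do not say that a shared number marks a shared litter or batch. The bacterial control signal was nevertheless 1528 and 1598 in the arrays numbered 1 against 328 and 465 in those numbered 2. Eif2s3y and Xist differed between the genotypes within each number. The deviations of same-numbered arrays from their group means correlated at 0.21 over genes. Leaving out an array moved Cox6a2 between -4.31 and -1.74, Cox7a1 between -3.89 and -1.68, and Cox8b between -3.82 and -1.72. The same step moved the complex medians between -0.036 and 0.20 (I), -0.099 and 0.25 (II), 0.20 and 0.40 (III), 0.051 and 0.20 (IV) and 0.058 and 0.28 (V). With equal array medians the complex IV median was 0.22, and the median of all genes shifted from 0.0053 to 0.097.

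Signs turned in 14 of 337 values of named genes, none of them called. With equal array medians Atp5h was 0.0099 and Cox7a2 0.054. Cox7a2 was also 0.043 after quantile normalization and 0.045 with the mean of its probe sets. When an array was left out, Atp5h ran from -0.17 to 0.0020, Cox6a1 from -0.081 to 0.46, Cox6b2 from -0.77 to 0.41, Cox7a2 from -0.14 to 0.065, Cox8c from -0.29 to 0.051 and Uqcrb from -0.27 to 0.010. The cause of these turns was not tested. The number of the 23 skeletal muscle markers that passed, counted under the same alternatives after seeing the data, was 18 with the replicate block, 5 with the mean of probe sets, and 2 with no filter and 2 with no trend, against 9. Counting probe sets in place of genes, an alternative chosen after seeing the data, called 0.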

Other observations

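The 10 probe sets with several symbols were left unnamed. For those whose symbols include Ndufa11, Ndufs6 or Ndufs5 and a near copy of the gene, the brightest gave log2 differences of 0.23, 0.23 and -0.12 in the fit of all probe sets past the filter. A probe set shared by Ndufb4 and its copies Ndufb4b and Ndufb4c read 6719 and 6752 in wild type against 6633 and 6811 in bitransgenic skin, a log2 difference of -0.0030.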
